A study of Homo sapiens with 6 samples.

Results

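Serum response factor (SRF) and 9 genes of the contractile actin cytoskeleton that are known as its targets were followed in PANC1 cells, a human pancreatic ductal carcinoma line, after exposure to gemcitabine, a cytidine analogue that stalls DNA replication. The 10 genes (SRF, ACTA2, ACTG2, TAGLN, CNN1, MYL9, MYLK, TPM1, VCL and FLNA) were taken by name from the 20461 genes of the expression table, and all 10 passed the minimum of 10 fragments over the 4 libraries that left 14854 genes for testing. RNA-seq was available from 2 libraries of cells given vehicle (0.1% DMSO) and 2 libraries of cells given 50 nM gemcitabine, each for 48 h, and DNaseI-seq, which marks open chromatin, from 1 library per condition. Vehicle and treated cells were the same unmodified line, so the comparison describes 1 established line in culture. The RNA libraries held 13194533 to 15766237 fragments assigned to genes, and a count of 3 fragments corresponded to 0.190 to 0.227 CPM (counts scaled to a common library size).

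SRF is a MADS-box transcription factor that binds DNA as a dimer at the CArG box. It works with alternative partners. Myocardin-related factors (MRTFs) are held by monomeric actin and reach the nucleus when actin is driven into filaments, and they direct SRF to genes of the contractile apparatus, whereas the ternary complex factors of the ELK group couple SRF to growth factor signalling and immediate early genes. In smooth muscle and in activated fibroblasts the MRTF branch maintains the contractile programme, and many carcinoma cells express parts of it.

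Gemcitabine was accompanied by a split among these genes. CNN1 (calponin 1) rose 3.92-fold from a low level and MYLK (myosin light chain kinase) rose 1.52-fold. Smaller rises were measured for ACTA2 (1.44-fold), TAGLN (1.28-fold) and MYL9 (1.26-fold). SRF itself, FLNA and TPM1 fell, by 18.3%, 19.8% and 13.0%, with TPM1 close to the threshold, and neither ACTG2 nor VCL passed the test. These changes were tested with edgeR (quasi-likelihood), and p-values were adjusted by Benjamini-Hochberg over all 14854 genes.

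The binding element was looked up first, because it is what links SRF to the other genes. The genome sequence of the hg19 build (GRCh37) was searched for the CArG box around the main annotated start of each gene. This motif of 10 letters is CC, then only A or T, then GG, and reads as the same motif on both strands. Only exact matches were counted. The matches within 1000 bases of a start are shown here in the direction of transcription, with the box in capitals and its distance given from the first base of the box to the start.
SRF, box at -30: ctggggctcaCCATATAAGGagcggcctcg
SRF, box at -10: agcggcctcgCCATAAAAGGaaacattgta
ACTG2, box at -110: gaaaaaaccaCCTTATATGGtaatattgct
ACTG2, box at -73: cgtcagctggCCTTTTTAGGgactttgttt
TAGLN, box at -283: agggtcctgtCCATAAAAGGcttttcccgg
TAGLN, box at -156: gtgtctttccCCAAATATGGagcctgtgtg
MYL9, box at -134: tgggtcgaggCCAAATAAGGccggacggca
VCL, box at -255: cccaccatgcCCTTATAAGGagcgcccggc
FLNA, box at -94: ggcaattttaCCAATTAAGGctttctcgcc

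The first SRF stretch lies at chr6:43138967-43138996 and the second at chr6:43138987-43139016, so the boxes stand side by side just before the start. Those of ACTG2 lie at chr2:74120015-74120044 and chr2:74120052-74120081, and those of TAGLN at chr11:117069793-117069822 and chr11:117069920-117069949. The MYL9 stretch is chr20:35169778-35169807, the VCL stretch chr10:75757609-75757638 and the FLNA stretch, on the minus strand, chrX:153603077-153603106. In the window from 250 bases before to 49 after the start, 5 of the 10 genes (50%) held at least 1 box, against 237 of 19343 genes of the table (1.23%). Within 1000 bases on either side it was 6 of 10 (60%) against 1578 genes (8.16%). No box was found in these windows of ACTA2, CNN1, MYLK and TPM1, which says only that no exact match lies there. Boxes with a changed letter were not searched for. The genes were listed as known SRF targets, so the excess of boxes is a description of the list.

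The genes spanned a wide range of expression. Levels were compared between genes as FPKM, fragments scaled to transcript length and to library depth. In vehicle cells the mean was 1434 FPKM for FLNA, 369.0 for TPM1, 141.1 for TAGLN, 109.1 for MYL9, 76.9 for VCL, 57.0 for ACTA2, 35.3 for SRF, 18.1 for MYLK, 2.11 for ACTG2 and 1.45 for CNN1. No neighbours in that order overlapped between their 2 libraries. After gemcitabine ACTA2 (87.1 FPKM) stood above VCL (84.0 FPKM), with overlapping libraries, and CNN1 (4.15 FPKM) stood above ACTG2 (3.19 FPKM), without overlap. The order of the other genes was the same in both conditions. This order depends on the transcript length used. For TAGLN the length implied by CPM over FPKM was 0.35 kb in both vehicle libraries. In CPM, without length, TAGLN (48.5 and 50.7 in vehicle) lay below MYL9 (120.4 and 116.1) and VCL (355.5 and 359.6). The FLNA estimate was marked as failed in 3 of the 4 libraries.

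**Figure D1:**
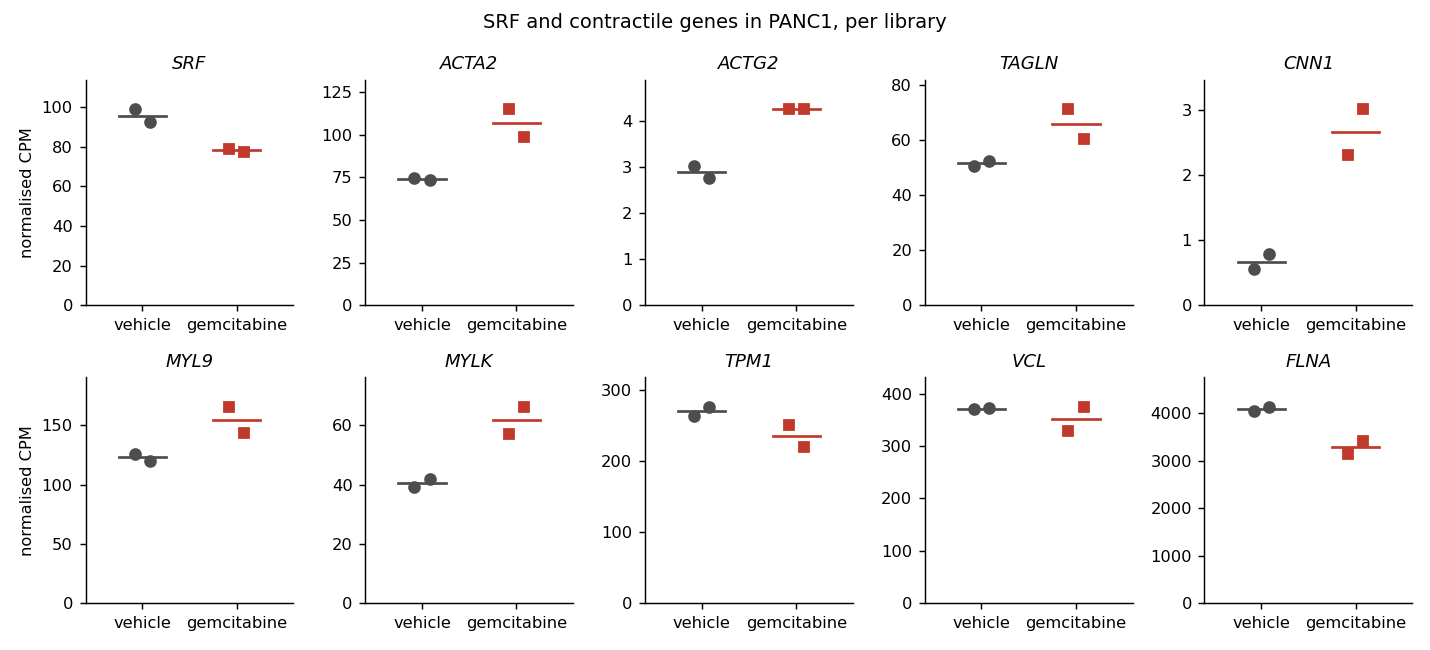
Normalised CPM (after TMM scaling, vertical axes from 0) of each of the 10 genes in the vehicle (grey circles) and gemcitabine (red squares) libraries, with a line at each group mean. The gemcitabine libraries lie above both vehicle libraries for ACTA2, ACTG2, TAGLN, CNN1, MYL9 and MYLK, below them for SRF, TPM1 and FLNA, and on both sides of them for VCL.

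SRF, the regulator, lies at chr6:43139007-43149244 on the plus strand. The vehicle libraries held 1439 and 1407 SRF fragments and the treated ones 1095 and 1054, which after scaling for depth and composition was 99 and 92.4 normalised CPM against 78.9 and 77.4. Both treated libraries were below both vehicle libraries. The log2 fold change was -0.29 (SE 0.0695, adjusted p = 0.00407), under the 1.5-fold limit used for calling a gene. FPKM was separated in the same direction, with 36.8 and 33.9 in vehicle and 31.4 and 29.4 after gemcitabine. Without vehicle replicate 1 the value was -0.23 and the adjusted p 0.121. A fit that leaves 1 library of a condition takes the spread from the other condition, here and in the values that follow.

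The smooth muscle actins form the thin filaments of contractile cells. ACTA2 (alpha smooth muscle actin, chr10:90694831-90751096, minus strand) had 1088 and 1120 fragments in vehicle and 1597 and 1347 after gemcitabine, or 74.9 and 73.5 normalised CPM against 115.1 and 98.9. The treated libraries were both above the vehicle libraries and differed more from each other than the vehicle libraries did. The log2 fold change was 0.53 (SE 0.0784, adjusted p = 0.00011), and it stayed past the test without any one library, from 0.42 without gemcitabine replicate 1 to 0.64 without gemcitabine replicate 2. The latter is above the fold limit (0.585 on the log2 scale), and so is the value with library totals in place of TMM scaling, also 0.64.

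ACTG2 (gamma smooth muscle actin, chr2:74119441-74146992, plus strand) was counted far less often, with 44 and 42 fragments in vehicle and 59 and 58 after gemcitabine. In normalised CPM it was 3.03 and 2.76 against 4.25 and 4.26. The conditions did not overlap, yet the log2 difference of 0.56 carried an SE of 0.237 and did not pass the test (adjusted p = 0.0774). With library totals it was 0.67 and passed (adjusted p = 0.0377).

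Actin genes are nearly identical in coding sequence, so the counting could divide reads between ACTA2, ACTG2 and the cytoplasmic actins, and values of the smooth muscle actins are uncertain to that extent. ACTB, the cytoplasmic beta actin, had 161475 and 161570 fragments in vehicle and 97683 and 91545 after gemcitabine, a fall of 0.66 on the log2 scale, so it moved in the direction opposite to ACTA2. ACTG1, the cytoplasmic gamma actin, here named after its values were seen, went from 72937 and 72334 to 48523 and 48195 fragments (log2 fold change -0.47, SE 0.0659, adjusted p = 6.24e-05). The reads came from a kit that does not mark strand. ACTA2 shares 380 of its 5628 annotated exonic bases with FAS, a death receptor gene on the other strand, which rose by 0.30 on the log2 scale (SE 0.0781, adjusted p = 0.00772), and 1638 with the antisense RNA ACTA2-AS1, which is not among the protein-coding genes counted. FAS did not pass without vehicle replicate 1 (adjusted p = 0.0786) or 2 (0.0995). Their part in the ACTA2 value was not tested.

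TAGLN encodes transgelin (SM22), an actin-binding protein of smooth muscle, at chr11:117070086-117078180 on the plus strand. It had 735 and 800 fragments in vehicle and 989 and 823 after gemcitabine, or 50.6 and 52.5 normalised CPM against 71.3 and 60.4. The treated libraries were higher without overlap, and gemcitabine replicate 2 lay nearer to the vehicle libraries than gemcitabine replicate 1. On the log2 scale the change was 0.35 (SE 0.0856, adjusted p = 0.00461). It was 0.33 without vehicle replicate 1 (adjusted p = 0.111) and 0.39 without vehicle replicate 2 (adjusted p = 0.0768), neither of which passed. It was 0.23 without gemcitabine replicate 1, which passed. TAGLN shares 2233 of 6550 exonic bases with PCSK7 on the other strand, which rose by 0.20 on the log2 scale (adjusted p = 0.0396) but did not pass without vehicle replicate 1 (0.131), vehicle replicate 2 (0.281) or gemcitabine replicate 1 (0.0924). TAGLN also shares 2498 exonic bases with an unnamed transcript on its own strand, which is not among the genes counted. The part of PCSK7 and of this transcript in the TAGLN value was not tested.

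CNN1 encodes calponin 1, which binds actin and restrains the myosin ATPase, and lies at chr19:11649582-11661138 on the plus strand. Only 8 and 12 CNN1 fragments were counted in vehicle, and 32 and 41 after gemcitabine. In normalised CPM this was 0.550 and 0.788 against 2.31 and 3.01, and in FPKM 1.32 and 1.58 against 4.26 and 4.04. Every treated library was above both vehicle libraries on both scales. CNN1 had the largest log2 fold change of the 10 genes, 1.97 (SE 0.38, adjusted p = 0.000912), between 1.75 and 2.26 with any one library left out, and it passed the test each time. With so few fragments its standard error was also the widest of the 10.

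MYL9 and MYLK belong to the switch that turns on non-muscle and smooth muscle myosin. MYL9 (the regulatory light chain that is phosphorylated, chr20:35169900-35179850, plus strand) had 1825 and 1831 fragments in vehicle and 2300 and 1961 after gemcitabine, or 125.6 and 120.2 normalised CPM against 165.7 and 144.0. Both treated libraries were higher. This made a log2 fold change of 0.33 (SE 0.0758, adjusted p = 0.00297). It was 0.37 without vehicle replicate 1 (adjusted p = 0.0625) and 0.31 without vehicle replicate 2 (adjusted p = 0.105), which did not pass, and 0.23 without gemcitabine replicate 1, which did.

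MYLK (the calcium-dependent kinase that phosphorylates this light chain, chr3:123328896-123603179, minus strand) had 572 and 639 fragments in vehicle and 793 and 903 after gemcitabine. In normalised CPM it was 39.4 and 42.0 against 57.1 and 66.3, again without overlap. The log2 fold change of 0.60 (SE 0.0872, adjusted p = 9e-05) was just over the fold limit of 0.585, and MYLK passed the test without any one library. The value was 0.56 without vehicle replicate 1 and 0.49 without gemcitabine replicate 2, both under the fold limit.

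The FPKM of MYLK did not follow its fragments. Vehicle libraries were at 26.2 and 9.98 FPKM and treated ones at 23.0 and 17.1, so the conditions overlapped, and the log2 ratio of the mean FPKM was 0.15. The transcript length implied by CPM over FPKM was 1.44 and 4.06 kb in vehicle and 2.62 and 3.99 kb after gemcitabine. The vehicle libraries thus spanned both treated ones. This implied length also takes in how the FPKM was scaled between libraries. MYLK is known to be transcribed as long kinase forms and as a short form, telokin, from an inner promoter. The annotation gives it 25 coding transcript starts. How the isoforms were shared out was not tested.

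**Figure D2:**
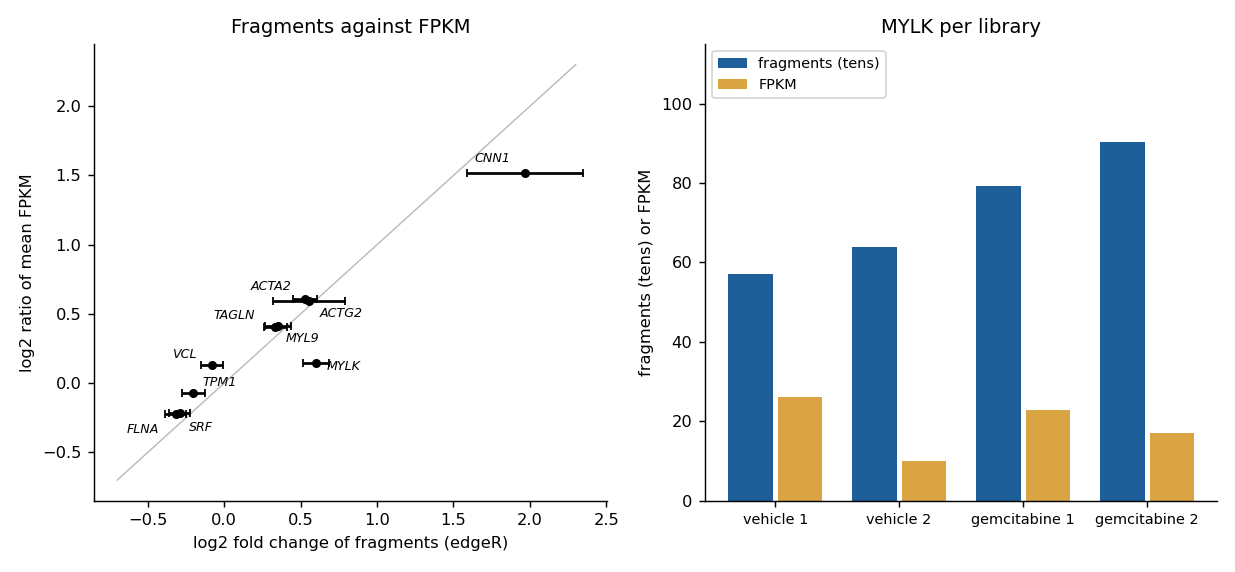
Left, the log2 fold change of fragments from edgeR (horizontal axis, bars show the SE) against the log2 ratio of mean FPKM (vertical axis) for the 10 genes, with a line where both are equal. Right, MYLK in each library as fragments divided by 10 (blue bars) and as FPKM (yellow bars). MYLK lies below the line, at 0.60 in fragments and 0.15 in FPKM, and its vehicle libraries are at 26.2 and 9.98 FPKM.

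TPM1 encodes tropomyosin 1, which lies along actin filaments and sets which proteins can reach them, at chr15:63334819-63364114 on the plus strand. It had 3835 and 4209 fragments in vehicle and 3480 and 2985 after gemcitabine, or 263.8 and 276.4 normalised CPM against 250.7 and 219.2. The treated libraries were lower, although in FPKM the conditions overlapped (370.7 and 367.2 against 372.9 and 328.4). The log2 fold change of -0.20 (SE 0.0744, adjusted p = 0.0449) was close to the threshold, and with DESeq2 it did not pass (adjusted p = 0.055). It was -0.23 without vehicle replicate 1 (adjusted p = 0.205), -0.16 without vehicle replicate 2 (adjusted p = 0.366), -0.11 without gemcitabine replicate 2 (adjusted p = 0.139) and -0.090 with library totals (adjusted p = 0.368). Of its 14700 exonic bases, 2645 are shared with the antisense RNA TPM1-AS.

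VCL and FLNA tie the actin network to the membrane. VCL (vinculin, of focal adhesions, chr10:75754951-75881121, plus strand) had 5387 and 5670 fragments in vehicle and 4557 and 5107 after gemcitabine, or 370.6 and 372.3 normalised CPM against 328.3 and 374.9. The treated libraries lay on either side of the vehicle libraries. VCL shares 1109 of its 9992 exonic bases with AP3M1 on the other strand, which did not pass (log2 difference -0.087, adjusted p = 0.329). The part of AP3M1 in the VCL value was not tested. The log2 difference of VCL was -0.079 (SE 0.0732, adjusted p = 0.423). It was 0.030 with library totals and 0.015 without gemcitabine replicate 1, so its sign depends on the scaling and on 1 library, and without gemcitabine replicate 2 it was -0.18 and passed (adjusted p = 0.00716).

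FLNA (filamin A, which cross-links actin filaments and anchors them to integrins, chrX:153576892-153603002, minus strand) was the most abundant of the 10, with 58842 and 63032 fragments in vehicle and 43711 and 46504 after gemcitabine. In normalised CPM it was 4048 and 4139 against 3149 and 3414, so both treated libraries were lower. FLNA fell by 0.32 on the log2 scale (SE 0.0679, adjusted p = 0.0019). It was -0.33 without vehicle replicate 1 (adjusted p = 0.0798) and -0.30 without vehicle replicate 2 (adjusted p = 0.112). Cuffdiff marked its estimate as failed in 3 of the 4 libraries.

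**Figure D3:**
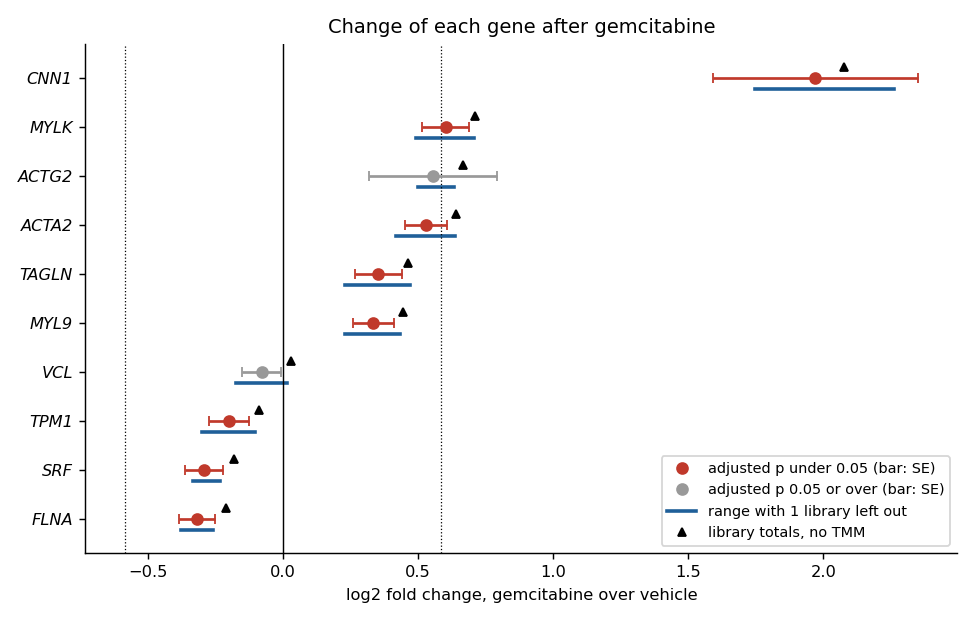
Log2 fold change of each gene, gemcitabine over vehicle (horizontal axis), with the SE as a bar, the range with any one library left out as a blue line and the value with library totals in place of TMM scaling as a triangle. Dotted lines mark the 1.5-fold limits. CNN1 stands apart at 1.97, MYLK is at the limit, VCL lies on both sides of 0, and SRF, FLNA and TPM1 lie below 0 in every setting drawn.

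Counted over the 10 genes, 2 were called higher and 0 lower when adjusted p, fold and FPKM were all required, where 5.69% of the 14854 tested genes were called higher and 4.42% lower. By adjusted p alone 5 were higher and 3 lower, beside 18.5% and 20% of all tested genes. In normalised CPM the conditions did not overlap for 6 genes that were higher and 3 that were lower, beside 35% and 34.7% of all tested genes. The median log2 fold change was 0.34 over the 10 genes and 0.0069 over all tested genes. With library totals these medians were 0.45 and 0.12. With limma on log2(FPKM + 1), CNN1 was the only one of the 10 with an adjusted p under 0.05 (log2 fold change 1.07, adjusted p = 0.0485), and ACTA2, MYL9 and TAGLN came next at 0.0606, 0.0745 and 0.0749. With genes under a mean of 0.1 FPKM left out of that fit, ACTA2, MYL9 and TAGLN passed as well (adjusted p = 0.0266, 0.0428 and 0.0412). In RNA from whole cultures, fewer cells of a type and less RNA per cell cannot be told apart.

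The partners of SRF were all detected. MRTFA, which carries the actin signal, had 1050 and 1069 fragments in vehicle and 838 and 847 after gemcitabine and fell by 0.22 on the log2 scale (SE 0.071, adjusted p = 0.0257). MRTFB, its paralogue, went from 698 and 743 to 518 and 508 fragments and fell by 0.38 (SE 0.079, adjusted p = 0.00175). ELK1 fell by 0.27 (SE 0.0773, adjusted p = 0.0131) and ELK4 by 0.22 (SE 0.0803, adjusted p = 0.0429). MYOCD (myocardin, the partner of cardiac and smooth muscle) had 607 and 685 fragments against 557 and 540, with a log2 difference of -0.12 (adjusted p = 0.266), and ELK3 had one of 0.049 (adjusted p = 0.725). MYOCD stood at 20.7 and 22.6 FPKM in vehicle, and where its fragments came from was not tested. With library totals MRTFB passed and MRTFA, ELK1 and ELK4 did not (adjusted p = 0.235, 0.103 and 0.281), and without vehicle replicate 2 none of the 4 did (0.14 for MRTFA, 0.0583 for MRTFB, 0.0993 for ELK1 and 0.402 for ELK4). By adjusted p 4 of the 6 thus fell in the fit on all libraries (beside 20% of all tested genes), none passed the 1.5-fold limit, and the list's median was -0.22 (-0.11 with library totals).

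Among 32 other contractile and adhesion genes, 7 rose and 7 fell by adjusted p, beside 18.5% and 20% of all tested genes, and 18 did not pass, around a median of 0.070 (0.18 with library totals). The called genes were CCN2 (connective tissue growth factor, 0.84, SE 0.0753, adjusted p = 1.34e-06), CNN3 (acidic calponin, 0.67, SE 0.0647, adjusted p = 2.71e-06) and ACTB (-0.66, SE 0.0665, adjusted p = 3.77e-06). With library totals ACTB was at -0.55, under the fold limit, and with limma on log2(FPKM + 1) it did not pass (adjusted p = 0.139). With genes under a mean of 0.1 FPKM left out of that limma fit, ACTB passed the test (adjusted p = 0.0353). CNN3 rose from 2160 and 2289 to 3328 and 3192 fragments and stood at 106.2 FPKM in vehicle, where CNN1 stood at 1.45 FPKM. Of the light chains beside MYL9, MYL6 rose by 0.31 (adjusted p = 0.00528) and MYL12A by 0.23 (adjusted p = 0.0135), while MYL12B, at 0.13, did not pass (adjusted p = 0.151), and the heavy chains MYH9 and MYH10 fell by 0.27 and 0.25 (adjusted p = 0.00557 and 0.00926). MYL6, MYL12A, MYH9 and MYH10 did not pass without vehicle replicate 1 or without vehicle replicate 2 (adjusted p from 0.106 to 0.156), and MYH10 did not pass with library totals either (adjusted p = 0.0884). MYL12B passed with library totals (0.24, adjusted p = 0.0123) and without gemcitabine replicate 2 (0.19, adjusted p = 0.00503). The myosin chains are named after their values were seen.

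The immediate early targets belong to the ELK branch. Of 7 listed genes 6 could be tested (EGR3 had 1 to 3 fragments per library), with a median of -0.67, 2 rises and 3 falls by adjusted p (beside 18.5% and 20% of all tested genes). EGR1 fell by 1.78 (SE 0.0699, adjusted p = 3.59e-09), FOS by 0.73 (SE 0.0667, adjusted p = 1.52e-06) and IER2 by 0.64 (SE 0.103, adjusted p = 0.000225). FOSB, of the same family as FOS, rose by 1.16 (SE 0.16, adjusted p = 5.78e-05), from 74 and 93 to 166.0 and 179 fragments. IER2 was under the fold limit without gemcitabine replicate 1 (-0.46) and without vehicle replicate 1 (-0.58), as well as with library totals (-0.53), and it did not pass with limma on log2(FPKM + 1) (adjusted p = 0.147). FOS and FOSB did not pass with that limma fit either (adjusted p = 0.0636 and 0.0544). With genes under a mean of 0.1 FPKM left out of it, FOS and FOSB passed (adjusted p = 0.0233 and 0.0311) and IER2 did not (0.0846). EGR1 and FOS had 71.1 and 239.8 FPKM in vehicle, more than FOSB at 2.01 FPKM.

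**Figure D4:**
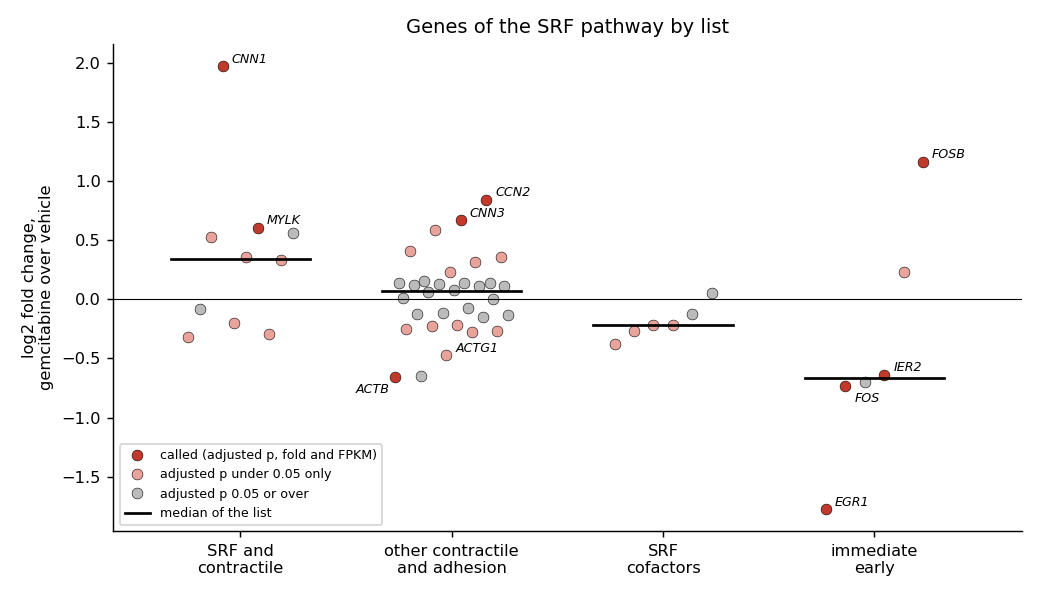
Log2 fold change, gemcitabine over vehicle (vertical axis), of the tested genes in the 10-gene set and in the other 3 lists of the SRF pathway, with a bar at each list's median. Dark red points were called, light red points passed the adjusted p alone and grey points did not pass. The medians run from 0.34 in the SRF and contractile set to -0.67 among immediate early genes, and every list but the cofactors holds called genes.

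Markers of the cell types that carry this programme were read beside it. The 6 ductal epithelial markers summed to 2254 and 2190 CPM in vehicle and 2588 and 2436 after gemcitabine, with the keratins KRT7, KRT8 and KRT18 abundant, and all 6 above 3 fragments in at least 1 library (CDH1, the epithelial cadherin, had 4 to 13). KRT19, a ductal keratin, went from 45 and 45 to 94 and 88 fragments and was called higher (log2 fold change 1.13, SE 0.208, adjusted p = 0.000651). Its adjusted p was 0.0587 with limma on log2(FPKM + 1), and 0.0294 with genes under a mean of 0.1 FPKM left out of that fit. KRT8 and KRT18 rose by 0.29 and 0.27 on the log2 scale (adjusted p = 0.00319 and 0.00586) and KRT7 fell by 0.18 (adjusted p = 0.0426), but these 3 did not pass without vehicle replicate 1 (adjusted p = 0.0718, 0.0711 and 0.342) or without vehicle replicate 2 (0.118, 0.157 and 0.238). EPCAM and CDH1 did not pass. The 5 smooth muscle markers summed to 102.8 and 111.1 CPM against 123.9 and 115.4. None was at 0. DES (desmin) went from 60 and 55 to 216 and 196 fragments, a log2 fold change of 1.95 (SE 0.161, adjusted p = 6.61e-07), and LMOD1 (leiomodin 1) from 4 and 4 to 13 and 10 (1.61, SE 0.57, adjusted p = 0.0374). LMOD1 did not pass without vehicle replicate 1 (adjusted p = 0.114), vehicle replicate 2 (0.127) or gemcitabine replicate 1 (0.153). MYH11, the smooth muscle myosin heavy chain, had 224 and 233 against 248 and 218 fragments and a log2 difference of 0.14 (adjusted p = 0.359). Its vehicle libraries stood at only 0.78 and 0.97 FPKM, at an implied transcript length of 18.95 and 15.24 kb. Where the MYH11 fragments came from was not tested. MYOCD and SYNM were at -0.12 and -0.18 and did not pass. The 8 fibroblast markers summed to 6439 and 6329 CPM against 6791 and 7631, with 2 of them (COL1A2 and PDGFRA) at or under 3 fragments in every library. Nearly all of this sum came from the collagens COL1A1 (4096 and 3974 CPM in vehicle) and COL3A1 (2299 and 2311 CPM). THY1 had 27.06 and 27.15 CPM in vehicle, so the sum does not describe the markers as a group. Of the 6 tested, FAP, LUM and THY1 rose, by 0.95, 0.77 and 0.60 (LUM did not pass without vehicle replicate 1 or 2, adjusted p = 0.065 and 0.0653), and COL1A1, COL3A1 and DCN did not pass. The part of these markers in the contractile genes was not tested.

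Open chromatin at the starts was described from the peak lists, 9606 peaks in the vehicle library and 10695 in the gemcitabine library, with no replicate and so no test. In the vehicle library 2 of the 10 genes, SRF and VCL, had a peak within 1 kb of a coding transcript start, where 27.7% of the tested genes had one. In the gemcitabine library it was 4 of 10 (SRF, VCL, MYLK and ACTA2), beside 32.1% of the tested genes. The SRF peak was chr6:43138237-43139224 in vehicle (score 134.5) and chr6:43138526-43139312 after gemcitabine (score 58.3), and both cover the SRF boxes printed above. VCL had chr10:75757230-75758143 (score 78.6) and chr10:75757266-75758173 (score 86.2), which both cover its box at -255. The boxes of ACTG2, TAGLN, MYL9 and FLNA lay in no peak of either library, although vehicle means were 141.1 FPKM for TAGLN, 109.1 FPKM for MYL9 and 1434 FPKM for FLNA.

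MYLK had a peak in the gemcitabine list alone, chr3:123602871-123603678, across its main start, with a score of 53.1 where the lowest in the list is 50. ACTA2 also had one in the gemcitabine list alone, chr10:90749792-90751074 (score 70.4), 15 bases from a coding start far upstream of the main start at 90712530. That peak also covers all 4 coding starts of FAS, so it cannot be assigned to ACTA2. A peak near the limit in 1 library and missing from the other does not show a difference in openness. No peak lay within 1 kb of a start of CNN1, the gene with the largest rise, and the nearest one (distance to the main start -2367 bases) was in the vehicle list.

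**Figure D5:**
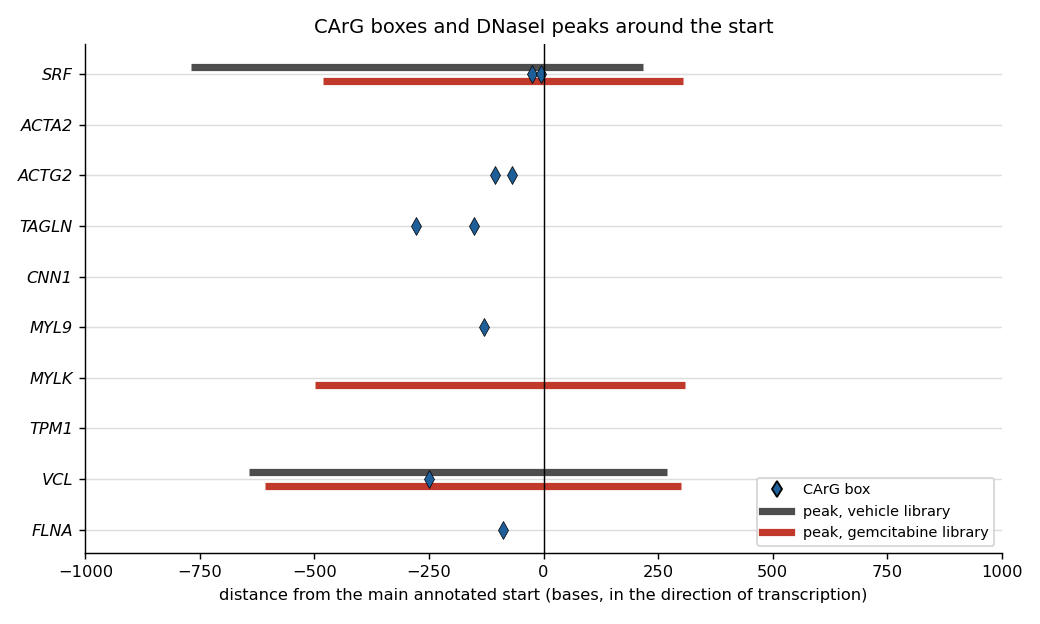
Distance from the main annotated start in the direction of transcription (horizontal axis, in bases) of the CArG boxes (blue diamonds) and of the DNaseI peaks of the vehicle (grey bars) and gemcitabine (red bars) libraries, for the 10 genes. SRF and VCL hold boxes inside peaks of both libraries, MYLK holds a gemcitabine peak with no box, and the boxes of ACTG2, TAGLN, MYL9 and FLNA lie outside peaks.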

How the data were processed

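RNA-seq reads, single-end, were placed on hg19 by the authors using TopHat2 2.0.8, and Cuffdiff 2.0.2 quantified protein-coding genes from Gencode 15 (tool versions from the submitters' processing notes). The deposited table holds estimated counts (fragments per gene and library, 88.4% of them whole) and the authors' FPKM, which divides by a transcript length estimated in each library. The authors called DNaseI peaks with MACS at a p-value of 1e-05 in 1 library per condition, and the deposited score ranks peaks within a list.

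Estimated counts were rounded to whole numbers, genes under 10 fragments in total were dropped, and the rest went into edgeR 4.0.16 under R 4.3.3 (quasi-likelihood, TMM scaling, Benjamini-Hochberg, no covariate), with code tested on simulated data. A gene was called at an adjusted p under 0.05, a fold over 1.5, a mean of at least 0.1 FPKM in 1 condition and an FPKM difference of at least 1. The study describes the 2 libraries per condition as biological replicates, and p-values measure the spread between these libraries. Replicate numbers here follow an index in the table that is not tied to the numbers in the labels. Both replicate pairs differed by more than counting noise (mean chi-square per gene 2.17 and 5.16). Coding starts came from Gencode 44 carried over to hg19, in which 19619 of the genes were found.

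All 10 genes are given in full. From each list the text names up to 4 called genes with the largest changes, at a mean of at least 1 CPM and without overlap, and the SRF partners one by one. The 10 genes and the lists were chosen with earlier results of these data known. The alternatives were DESeq2 1.42.0, other scalings and filters, limma 3.58.1 on log2(FPKM + 1) and log2(FPKM + 0.1), other limits, each library left out, a replicate block, and other peak limits.

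Results of 1 list and of some single genes are not reported here.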

Additional observations from a re-analysis of the deposited data

How the results depend on the processing

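Over 13 alternatives for each of the 10 genes, 92 of the 130 values kept their direction and their side of an adjusted p of 0.05, 31 no longer passed, 2 came to pass and 5 turned their sign, all 5 of VCL. VCL was 0.030 with library totals, 0.13 in each of the limma fits and from -0.18 to 0.015 with 1 library left out. Among the partners, MYOCD was 0.041, 0.043 and 0.041 in the limma fits and ELK3 ran from -0.13 to 0.21 with 1 library left out. Of the 10 genes, 5 were higher and 3 lower by adjusted p alone, 4 were called higher with library totals, 1 with limma on log2(FPKM + 1) or log2(FPKM + 0.1), and 1 to 2 with 1 library left out (1 without vehicle replicate 1). The 3 pathway lists (SRF cofactors, other contractile and adhesion, immediate early) held 6, 32 and 6 tested genes. Those called higher (3, beside 5.69% of all tested genes) became 9 by adjusted p alone, beside 18.5%. Those called lower (4, beside 4.42%) became 14 by adjusted p alone, beside 20%. With library totals 2 were called lower, with limma at either pseudocount 1, and with a mean of at least 0.1 FPKM 2. Over all genes, 845 were called higher and 656 lower, against 1164 and 418 with library totals, 2751 and 2975 by adjusted p alone, 300 and 104 with limma on log2(FPKM + 1), 428 and 178 on log2(FPKM + 0.1), and 333 lower with the FPKM filter. A replicate block gave 844 and 661, with 2 and 0 of the 10 genes, and changed no call among the 10 genes. Same-numbered libraries did not deviate together (r = -0.0488 over 12276 genes), which cannot show whether samples were paired. Within 5 kb of a start, 5 of the 10 genes had a peak in vehicle and 5 in gemcitabine, beside 31.7% and 36.6% of the tested genes. Among scores at or above the list's median it was 2 in vehicle and 1 in gemcitabine, beside 17.1% and 18.8%. Among peaks that cover a start it was 2 in vehicle and 3 in gemcitabine, beside 25.3% and 29.6%. The difference between 2 and 4 genes within 1 kb thus did not hold within 5 kb or among the upper scores. The cause of these shifts was not tested. At 8 to 12 fragments per vehicle library, CNN1 is the one of the 10 genes whose value depth limits most.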
